A study of Mus musculus with 4 samples.

Results

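The Myc and Mxd network was followed as 9 genes of the deposited count table, chosen by gene symbol: the Myc paralogs Myc, Mycn and Mycl1 (an older symbol of Mycl), their partner Max, and the antagonists Mxd1, Mxd3, Mxd4, Mxi1 and Mnt. All 9 were found among 22608 genes, and all 9 were among the 14090 genes with enough reads to be tested. Poly(A) RNA was sequenced from mouse neural stem cells (NSCs), which can form neurons and glia, after transfer to conditions that favor oligodendrocyte precursor cells (OPCs). The cultures came from embryonic cerebral cortex of CD-1 mice and were expanded with EGF and FGF (20 ng/ml each). After lentiviral transduction and puromycin selection, every culture spent 3 days in CNTF (20 ng/ml), a cytokine, and T3 (40 ng/ml), a thyroid hormone. The cells of the 2 lnc-OPC knockdown libraries carried a short hairpin RNA against the long non-coding RNA lnc-OPC. Those of the 2 luciferase control libraries carried a hairpin against luciferase, an enzyme with no mouse counterpart. Both knockdown libraries carried the same hairpin according to their column headings, so an effect of that hairpin and an effect of lnc-OPC loss cannot be told apart. No row of the table was named for lnc-OPC, so the groups rest on the labels.

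Myc, Mycn and Mycl1 encode transcription factors that promote growth and proliferation. They bind DNA only as dimers with Max, at a short palindrome called the E-box, and recruit acetyltransferase complexes there. Mxd proteins, Mxi1 and Mnt also dimerize with Max, occupy the same kind of site and recruit Sin3 and histone deacetylases, so they oppose Myc. In many lineages, proliferating progenitors make more Myc and differentiating cells make more of the Mxd proteins.

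Reads assigned to genes numbered 49663413 and 50098577 in the knockdown libraries and 49584378 and 46144779 in the control libraries. Levels are given as CPM, the reads of a gene relative to the library total after TMM scaling. Known markers of other cells changed in the same samples. Of 14 oligodendrocyte lineage markers, 13 fell, and their summed level was 2223 to 2315 CPM in the knockdown and 3383 to 3480 CPM in the control. Of 9 tested astrocyte markers, 5 rose and 3 fell (Aqp4, Sox9 and S100b). The sums of this list were 7308 to 7421 CPM in the knockdown and 4960 to 5048 CPM in the control. Most of that gap lay in Gfap, at 2301 and 2415 CPM in the knockdown and 700 and 772 CPM in the control. The astrocyte sums therefore do not describe the list. Of 8 neural stem cell markers, 4 rose and 2 fell (Nes and Hes5), with sums of 16201 to 16518 CPM in the knockdown and 13461 to 13618 CPM in the control. Vim made up most of these sums, at 11571 and 12001 CPM in the knockdown and 8597 and 8638 CPM in the control. The sums therefore mainly follow that gene and do not describe the list. Of 9 proliferation markers, 4 rose and 5 were not called. The share called at an adjusted p under 0.05 was 44.4%, near the 46.7% of all genes tested. Their sums were 319.7 to 361.7 CPM in the knockdown and 276.9 to 300.6 CPM in the control. Top2a and Mki67, neither of them called, made up most of each sum. Of 7 neuron markers, 3 rose and 2 fell. The share called was 92.9% of oligodendrocyte lineage, 88.9% of astrocyte, 75% of neural stem cell and 71.4% of neuron markers. Microglial RNA was near absent, with 7 of 8 markers too low to test and Cx3cr1, Tmem119, C1qa and C1qb at 0 in every library. Of 8 endothelial and mural markers, 6 were too low to test, among them Rgs5, and Cldn5 and Cdh5 were at 0 in every library. The 2 tested genes, the mural genes Acta2 and Pdgfrb, fell (100% called). The list summed to 133.8 to 136.0 CPM in the knockdown and 343.6 to 366.2 CPM in the control. Acta2 made up nearly all of each sum, at 133 and 135 CPM in the knockdown and 357 and 335 CPM in the control. In bulk RNA, fewer cells of a type and less RNA per cell cannot be told apart, and the part of these shifts in the results below was not tested.

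Because Max dimers recognize the E-box, the promoters of the members were searched for its core letters, CACGTG, which read the same on both strands. RefSeq promoter windows (build GRCm38.p6, 250 bases before to 50 bases after a start site) were found for 8 of the 9 members. No window was found for Myc, so its promoter was not searched. The 3 members that held the letters are shown as 30-base stretches, read 5′ to 3′ on the strand of the gene, with the E-box in capitals.
Max, chr12:76962234-76962263, minus strand: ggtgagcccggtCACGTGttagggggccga
Mnt, chr11:74830789-74830818, plus strand: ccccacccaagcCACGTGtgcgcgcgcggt
Mxd4, chr5:34187912-34187941, minus strand: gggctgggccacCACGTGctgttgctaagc
The match in Max began 3 bases before the annotated start, that in Mnt 123 bases before it and that in Mxd4 219 bases before it. Among all promoter windows of the same length, 7.15% held the letters, or 8.09% of genes. A match is a description of sequence and not evidence of binding. Of the members whose windows held the letters, Max and Mnt were lower in the knockdown and Mxd4 was not called. Mycl1 and Mxd1, whose windows held none, were lower too. The Mycl1 window, chr4:122995681-122995980, lies inside the gene as GENCODE M21 draws it (chr4:122995652-123002485). The bases before that start were therefore not searched. A link between the letters and the changes was not tested.

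In GENCODE M21 (GRCm38), the Myc paralogs lie at chr15:61985391-61990374 (Myc, plus strand), chr12:12936093-12941914 (Mycn, minus) and chr4:122995652-123002485 (Mycl1, plus). Max lies at chr12:76937269-76962201 on the minus strand. The antagonists lie at chr6:86647042-86669161 (Mxd1, minus), chr13:55325168-55329823 (Mxd3, minus), chr5:34173883-34187720 (Mxd4, minus), chr19:53310518-53375810 (Mxi1, plus) and chr11:74830920-74845725 (Mnt, plus).

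The network changed modestly, with its clearest difference in Mycl1. By the quasi-likelihood test of edgeR (adjusted p below 0.05), 4 members fell in the knockdown (Mycl1, Mxd1, Mnt and Max), 1 rose (Myc) and 4 were not called (Mycn, Mxd3, Mxd4 and Mxi1). The share called was 55.6% of members against 46.7% of all genes tested, and by direction 23.3% of all genes tested were lower and 23.5% higher. The count is therefore close to what genes in general did in this comparison. The members had a median log2 change of -0.09, and all genes tested had one of 0.00. Both knockdown libraries lay above both controls for 2 members and below both for 5. Among all genes tested, 36.4% lay above and 36.2% below in this way, so that the groups did not overlap for 72.6%. The 9 genes together took 437.9 and 442.0 CPM in the knockdown libraries and 482.5 and 482.7 CPM in the control libraries.

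**Figure D1:**
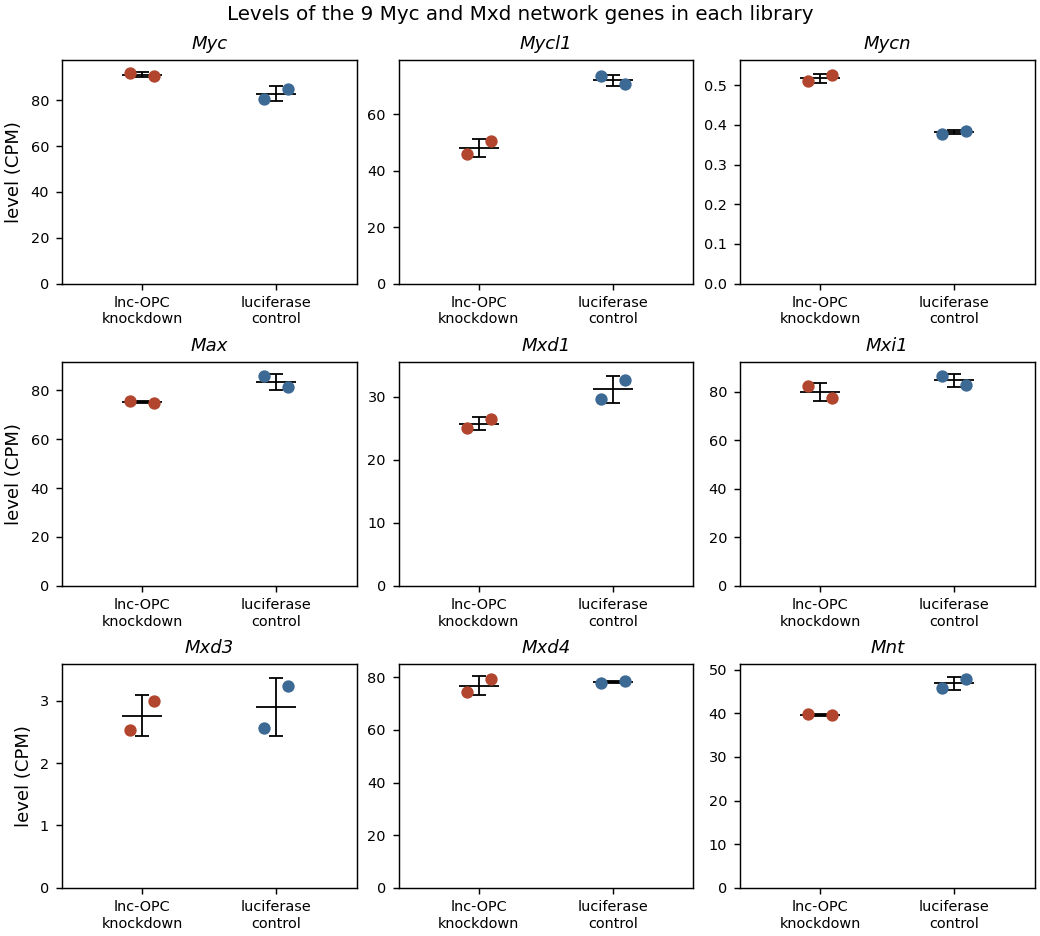
Levels of the 9 network genes in CPM (vertical axes, linear from 0, a scale per gene) in the 2 lnc-OPC knockdown libraries (left, red) and the 2 luciferase control libraries (right, blue); the horizontal line and bars are the mean ± SD. Mycl1 shows a gap wider than the spread in either group, at 45.9 and 50.3 CPM in the knockdown against 73.3 and 70.6 CPM in the control, and the groups overlap for Mxd3 and Mxd4.

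Mycl1, a paralog first found amplified in human lung cancer, had the largest called change. Its level was 45.9 and 50.3 CPM in the knockdown libraries and 73.3 and 70.6 CPM in the control libraries. The gap between the groups was wider than the spread within either one. Knockdown libraries averaged 48.1 ± 3.15 CPM and control libraries 72.0 ± 1.94 CPM (SD, n = 2 each). The log2 change was -0.58 (SE 0.05, edgeR adjusted p = 2.86e-12), or 1.5-fold lower. Among all genes tested, 11.9% changed by more than this in either direction. The call held under all 8 alternatives, with adjusted p-values between 1.34e-35 and 0.00012. Of the 14 oligodendrocyte lineage markers counted above, 13 were also lower, with a median log2 change of -1.93 over all 14, and their part in the Mycl1 decrease was not tested.

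Myc itself, the most widely expressed paralog and a driver of ribosome production and cell growth, was slightly higher. It had 92.0 and 90.5 CPM in the knockdown libraries against 80.6 and 85.1 CPM in the control libraries. The groups did not overlap, but the distance between the nearest libraries was of the order of the spread between the controls. Knockdown libraries averaged 91.2 ± 1.04 CPM and control libraries 82.9 ± 3.19 CPM (SD, n = 2 each). The log2 change was 0.14 (SE 0.04, edgeR adjusted p = 0.00344), or 1.10-fold. This increase lost its call without control replicate 1, where the edgeR adjusted p was 0.0992 at a log2 change of 0.10 (range over all alternatives, 0.00142 to 0.0992). The sums of the proliferation markers were also higher in both knockdown libraries, though the share of these markers called was near that of all genes tested. Most of each sum came from Top2a and Mki67, which were not called. The part of the proliferation markers in the Myc increase was not tested.

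Mycn, the paralog of embryonic neural progenitors, was near the limit of detection. It had 25 and 26 reads in the knockdown libraries and 19 and 18 reads in the control libraries, which is 0.51 and 0.53 CPM in the knockdown and 0.38 and 0.39 CPM in the control. Both knockdown values were higher, but exact Poisson intervals (95%, counting error only) ran from 0.33 to 0.75 CPM in knockdown replicate 1 and from 0.23 to 0.59 CPM in control replicate 1. Its log2 change was 0.44 (SE 0.45, edgeR adjusted p = 0.448), with a 95% interval from -0.47 to 1.35. A difference in Mycn was not detectable at this depth.

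The balance between the 2 well expressed paralogs can be read within each library, where scaling between libraries plays no part. There were 0.499 and 0.556 Mycl1 reads for each Myc read in the knockdown libraries, against 0.910 and 0.829 in the control libraries. Knockdown libraries averaged 0.527 ± 0.0406 and control libraries 0.870 ± 0.057 (SD, n = 2 each). The groups did not overlap, and with 2 libraries each an exact two-sided permutation test cannot go below p = 0.333. Summed per length of transcript, the Myc paralogs came to 52.6 and 53.3 CPM per kb in the knockdown and 55.6 and 56.7 CPM per kb in the control. Unlike the ratio of reads, this sum depends on the scaling between libraries and on the transcript length taken.

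**Figure D2:**
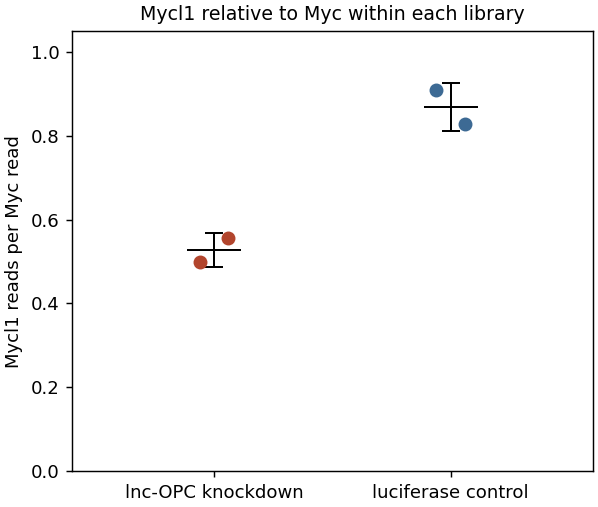
Number of Mycl1 reads per Myc read (vertical axis, from 0) in the 2 lnc-OPC knockdown libraries (left, red) and the 2 luciferase control libraries (right, blue), with the mean ± SD in black. The knockdown libraries sit at 0.499 and 0.556 and the control libraries at 0.910 and 0.829.

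Max, the shared dimer partner of every member, was lower by a small amount. Its level was 75.4 and 74.8 CPM in the knockdown libraries and 85.7 and 81.2 CPM in the control libraries. The groups did not overlap. The log2 change was -0.15 (SE 0.04, edgeR adjusted p = 0.00211), or 1.11-fold lower. Without control replicate 1 the decrease was no longer called (log2 change -0.11, edgeR adjusted p = 0.0753; range over all alternatives, 0.000714 to 0.0753).

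Among the antagonists, Mnt and Mxd1 fell. Mnt, which is made in dividing and resting cells alike, had 39.8 and 39.5 CPM in the knockdown libraries and 45.8 and 47.9 CPM in the control libraries. The 2 knockdown values were nearly equal and lay well below both controls. Its log2 change was -0.24 (SE 0.05, edgeR adjusted p = 0.000187), and the call held under all 8 alternatives. Mxd1, the founding Mxd gene and one that rises as cells leave the cycle, had 25.1 and 26.5 CPM in the knockdown libraries and 29.7 and 32.8 CPM in the control libraries. Its log2 change was -0.28 (SE 0.06, edgeR adjusted p = 0.000543). Without control replicate 2, the higher of the controls, it missed the threshold (edgeR adjusted p = 0.0586, log2 change -0.20; range over all alternatives, 5.35e-05 to 0.0586).

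Mxi1, also known as Mxd2, was not called. It had 82.4 and 77.3 CPM in the knockdown libraries and 86.5 and 82.9 CPM in the control libraries. The higher knockdown library and the lower control library were close to each other. The log2 change was -0.09 (SE 0.04, edgeR adjusted p = 0.0863), with a 95% interval from -0.17 to -0.0023 before adjustment. It passed the threshold without knockdown replicate 1 (log2 change -0.13, edgeR adjusted p = 0.0294; range over all alternatives, 0.0294 to 0.565).

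Mxd4, the antagonist with the highest share of reads after Mxi1, gave 74.3 and 79.5 CPM in the knockdown libraries and 78.0 and 78.6 CPM in the control libraries, so that the groups overlapped. Its log2 change was -0.03 (SE 0.04, edgeR adjusted p = 0.635), and the 95% interval from -0.11 to 0.06 leaves room only for small differences. Mxd3, which is made during S phase in cycling cells, had 2.53 and 2.99 CPM in the knockdown libraries and 2.57 and 3.23 CPM in the control libraries. These groups overlapped as well. Its log2 change was -0.07 (SE 0.19, edgeR adjusted p = 0.802), with a wider 95% interval from -0.46 to 0.32.

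Reads of some antagonists can fall where the exons of a neighbor overlap, and the library kit does not mark strand. How such reads were counted is not known, because the annotation release and strand setting were not given. In the GENCODE M21 annotation (GRCm38), 105 exonic bases of Mxd3 (4.43%) overlap Prelid1 on the opposite strand, 514 bases of Mxd4 (6.06%) overlap the antisense gene Gm42846, and 194 bases of Mxi1 (2.84%) overlap Gm10197. The other 6 members overlap the exons of no other annotated gene there.

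**Figure D3:**
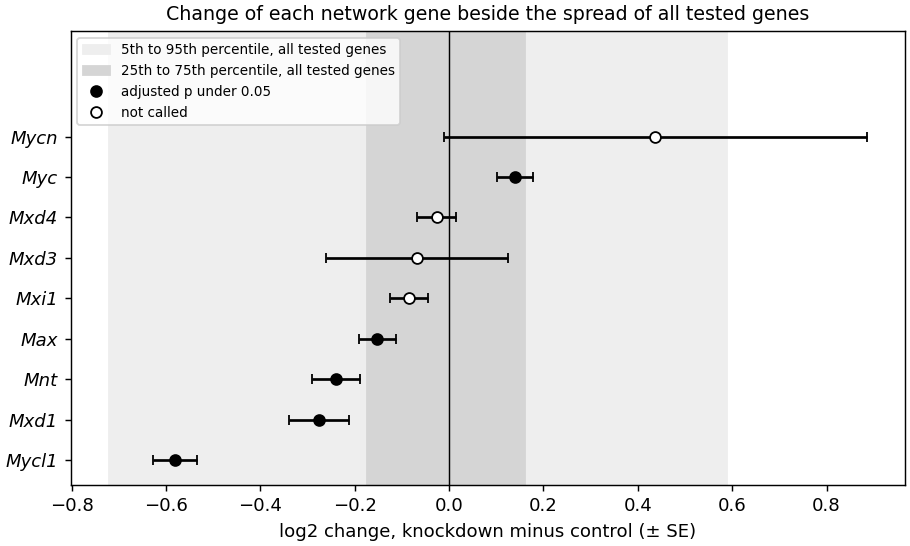
Log2 change of each network gene, knockdown minus control (horizontal axis, ± SE), from the highest at the top to the lowest at the bottom; filled points passed an adjusted p under 0.05 and open points did not. The gray bands show the spread of all 14090 tested genes, from -0.72 to 0.59 for the 5th to 95th percentile and from -0.17 to 0.16 for the 25th to 75th, and Mycl1 at -0.58 lies farthest from 0.

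To rank the members against each other, CPM were divided by the length of the longest transcript that GENCODE pairs with a RefSeq mRNA. On this scale of CPM per kb, Myc and Max stood at the top in the knockdown, with 39.0 ± 0.447 for Myc and 38.7 ± 0.228 for Max, and did not differ beyond their spread. In the control Max averaged 43.0 ± 1.62 and Myc 35.4 ± 1.37 CPM per kb (SD, n = 2). Mxi1 followed in both groups, with 30.4 ± 1.36 in the knockdown and 32.2 ± 0.981 in the control. Mycl1 had 13.7 ± 0.901 CPM per kb in the knockdown, below Mxd4 at 19.9 ± 0.954, whereas in the control Mycl1 at 20.6 ± 0.555 and Mxd4 at 20.2 ± 0.117 overlapped. Mnt was next, with 8.64 ± 0.0433 in the knockdown and 10.2 ± 0.329 in the control, then Mxd1, with 5.52 ± 0.213 in the knockdown and 6.69 ± 0.472 in the control. Mxd3 was at 2.08 ± 0.247 in the knockdown and 2.19 ± 0.353 in the control, and Mycn was last at 0.194 ± 0.00419 in the knockdown and 0.143 ± 0.00181 in the control. The order depends on the length taken. With the union of all annotated exons in its place, Myc stood above Max in both groups, Myc at 33.6 CPM per kb and Max at 20.9 CPM per kb in the knockdown, and Myc at 30.5 and Max at 23.2 CPM per kb in the control. Mxd4 dropped to 9.07 CPM per kb in the knockdown and 9.23 CPM per kb in the control, and Mycl1 was above it in both groups.

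On the same scale, the antagonists summed to 66.5 CPM per kb in each knockdown library and to 71.3 and 71.8 CPM per kb in the control libraries. The ratio of summed Myc paralogs to summed antagonists was 0.792 and 0.801 in the knockdown and 0.779 and 0.790 in the control, so that the lowest knockdown library and the highest control library were almost level. With union exon lengths the ratio was 1.332 and 1.341 in the knockdown libraries and 1.294 and 1.295 in the control libraries, a gap wider than the spread in either group. Both the level of the ratio and the gap between the groups thus depend on the length taken. Whether the paralogs or the antagonists sum higher cannot be read from these data. The ratio of Myc paralogs to Max was 1.35 and 1.38 in the knockdown libraries and 1.26 and 1.36 in the control libraries, and the groups overlapped. With union exon lengths it was 2.16 and 2.21 in the knockdown libraries and 2.01 and 2.17 in the control libraries, again with overlap, so the level of this ratio depends on the length as well.

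**Figure D4:**
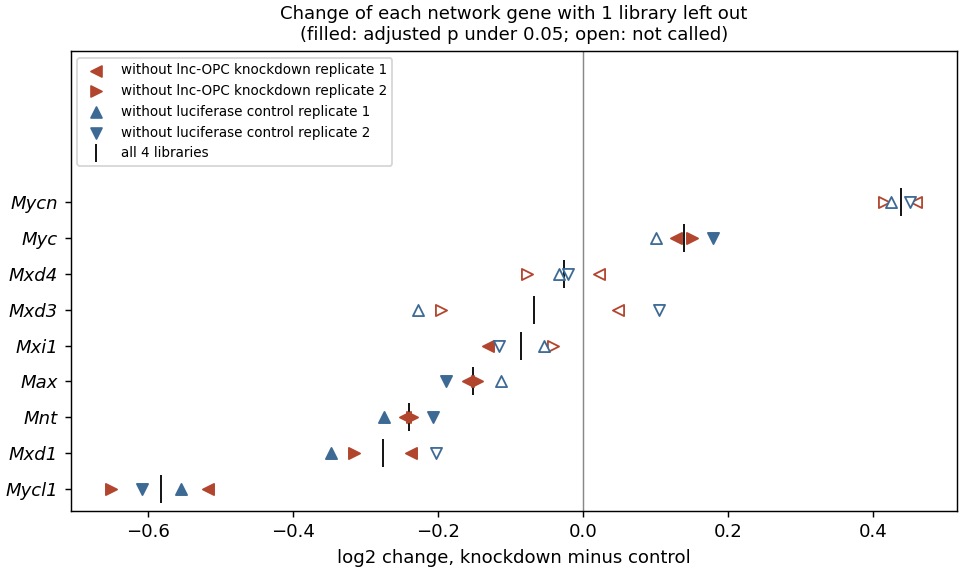
Log2 change of each network gene, knockdown minus control (horizontal axis), with all 4 libraries (black bars) and with each library left out in turn (triangles, red where a knockdown library and blue where a control library was left out; filled where the adjusted p was under 0.05). Mycl1 and Mnt stayed called in every case, Mycl1 between -0.65 and -0.52, and Mxd3 and Mxd4 crossed 0.

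The genes whose profile over the 4 libraries was nearest to that of Mycl1, by Euclidean distance between centered log2 CPM among 9916 genes of at least 10 CPM, were Sfrp1 (distance 0.03), Lass4 (0.04) and Ciao1 (0.04). Sfrp1, a secreted Wnt antagonist, had 58.3 ± 4.05 CPM in the knockdown and 86.1 ± 0.947 CPM in the control. Lass4, a ceramide synthase, fell 1.47-fold and Ciao1, a factor of iron-sulfur protein assembly, fell 1.48-fold. Nearest to Myc were Hint1 (distance 0.01), Dnajc18 (0.01) and Lsm4 (0.01), with increases of 1.11-fold, 1.10-fold and 1.10-fold. With 4 libraries in 2 groups, such likeness mostly reflects a similar fold change.

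The wider network was examined next, beginning with the branch that shares the Max and Mlx partners. Of its 4 genes, 3 fell (75% called, against 46.7% of all genes tested). Mlxip, a glucose-sensing partner of Mlx, had 46.4 ± 3.15 CPM in the knockdown and 60.2 ± 0.221 CPM in the control (edgeR adjusted p = 8.53e-08). Mlx, its partner, had 31.0 ± 0.174 CPM in the knockdown and 37.2 ± 1.1 CPM in the control (edgeR adjusted p = 0.000196). Mga, a large Max partner that acts with a Polycomb complex, had 137.5 ± 7.11 CPM in the knockdown and 157.0 ± 7.07 CPM in the control (edgeR adjusted p = 7.14e-05). Mlxipl, the carbohydrate response factor of liver, was at 0.27 ± 0.016 CPM in the knockdown and 0.155 ± 0.00673 CPM in the control and was not called (edgeR adjusted p = 0.301). The median log2 change of the branch was -0.23.

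Corepressors recruited by Mxd proteins and Mnt moved both ways. Of 11 tested, 4 fell and 3 rose (63.6% called, against 46.7% of all genes tested), with a median log2 change of -0.04. The histone deacetylase gene Hdac2 fell 1.29-fold, with 175.7 ± 0.511 CPM in the knockdown and 226.6 ± 0.245 CPM in the control (edgeR adjusted p = 3.61e-12). The corepressor gene Ncor1 fell 1.13-fold, and the Sin3 subunit gene Sap30 also fell. The histone-binding genes Rbbp7 and Rbbp4 and the subunit gene Sap18 rose, Rbbp7 by 1.11-fold. Sin3a, the main docking partner of Mxd proteins, was not called (log2 change -0.04, SE 0.04, edgeR adjusted p = 0.45).

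Coactivators of Myc also split. Of 15 tested, 5 fell, 3 rose and 7 were not called, with a median log2 change of -0.06. The share called, 53.3%, was near the 46.7% of all genes tested. The acetyltransferase gene Ep300 fell 1.22-fold and the chromatin remodeler gene Ep400 fell 1.14-fold, while the elongation factor gene Paf1 rose 1.12-fold. Trrap, the scaffold that Myc binds, was among the lower genes, at 287.4 ± 11.6 CPM in the knockdown and 306.1 ± 6.44 CPM in the control (edgeR adjusted p = 0.0149). These counts depended on single libraries. Without control replicate 2, 2 coactivators were lower and 1 was higher. Without knockdown replicate 1, 1 was higher, and without knockdown replicate 2, 3 were lower.

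Of 15 regulators of Myc protein stability, 7 fell and 1 rose (Trim32), with a median log2 change of -0.06. Here too 53.3% were called, near the 46.7% of all genes tested. The ubiquitin ligase gene Huwe1 had 522.6 ± 23.8 CPM in the knockdown and 630.3 ± 0.958 CPM in the control, 1.21-fold lower (edgeR adjusted p = 3.09e-09). Gsk3b, the kinase that marks Myc for destruction, fell 1.14-fold, and the ubiquitin ligase gene Skp2 fell 1.24-fold. The nucleolar deubiquitinase gene Usp36, which protects Myc, also fell 1.24-fold, so the lower genes include factors known to shorten and to lengthen the life of the protein. Fbxw7, the ligase that reads the mark set by Gsk3b, had a log2 change of -0.06 (edgeR adjusted p = 0.367). Trim32 was not called without knockdown replicate 1 or without control replicate 2.

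Genes known as Myc targets changed in both directions. Of 31 nucleolar targets, 3 rose, 4 fell and 24 were not called, with a median log2 change of -0.04; the share called was 22.6%, beside 46.7% of all genes tested. Nip7, a factor of the large ribosomal subunit, had 37.2 ± 0.499 CPM in the knockdown and 27.2 ± 3.40 CPM in the control (edgeR adjusted p = 1.45e-06). Pa2g4 rose 1.16-fold and the nucleolin gene Ncl also rose. The pseudouridine synthase gene Dkc1 fell 1.25-fold, with 41.3 ± 1.10 CPM in the knockdown and 51.5 ± 2.59 CPM in the control (edgeR adjusted p = 2.98e-06), and Tcof1, Ddx21 and Polr1b also fell. Their summed level was 2153 to 2164 CPM in the knockdown libraries and 2126 to 2158 CPM in the control libraries, and these ranges overlapped.

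Of 32 metabolic and growth targets, 9 rose, 6 fell and 17 were not called, with a median log2 change of 0.04. The share called, 46.9%, was that of genes in general (46.7%). Their summed level was 3033 and 3038 CPM in the knockdown libraries and 2884 and 2837 CPM in the control libraries, without overlap. Such a sum mostly follows the abundant genes, among them Ccnd2, Slc3a2, Ldha and Paics, which rose, and Cdk4, which fell. Slc3a2, a subunit of the large amino acid transporter, rose 1.26-fold, while its partner subunit gene Slc7a5 fell 1.16-fold (edgeR adjusted p = 9.56e-06), and the lactate dehydrogenase gene Ldha rose 1.25-fold, with 233.2 ± 3.07 CPM in the knockdown and 186.4 ± 2.77 CPM in the control (edgeR adjusted p = 8.88e-11). The purine synthesis gene Paics rose 1.18-fold. Tfrc, the transferrin receptor gene, fell 1.25-fold. Among other textbook targets in the list, chosen for mention, like Slc7a5, after their values were seen, the polyamine enzyme gene Odc1 had a log2 change of 0.27 (edgeR adjusted p = 3.10e-05) while the next enzyme of that pathway, Srm, had one of -0.20 (edgeR adjusted p = 0.00133), and the telomerase gene Tert had one of -1.07 (edgeR adjusted p = 0.000505) at 1.12 ± 0.108 CPM in the knockdown and 2.35 ± 0.143 CPM in the control.

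Of 12 genes known to be repressed by Myc in other cells, 3 rose, 3 fell and 6 were not called, with a median log2 change of 0.03. The share called, 50%, was near the 46.7% of all genes tested. Their summed level was 2745 and 2832 CPM in the knockdown libraries and 2628 and 2651 CPM in the control libraries. Clu, which was not called, made up most of each sum, at 1678 and 1733 CPM in the knockdown and 1662 and 1661 CPM in the control. The sum therefore does not describe the list. Cdkn1a, a cell cycle inhibitor that is also a p53 target, rose 2.18-fold, with 193.9 ± 1.5 CPM in the knockdown and 88.9 ± 2.54 CPM in the control (edgeR adjusted p = 8.36e-24). The cell cycle inhibitor gene Cdkn2c rose 1.36-fold and the differentiation gene Ndrg2 rose 1.14-fold. Gas1, a growth arrest gene, fell 1.43-fold, with 140.4 ± 4.95 CPM in the knockdown and 201.3 ± 1.14 CPM in the control (edgeR adjusted p = 3.03e-15), and Gadd45b and Cdkn1c fell as well.

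**Figure D5:**
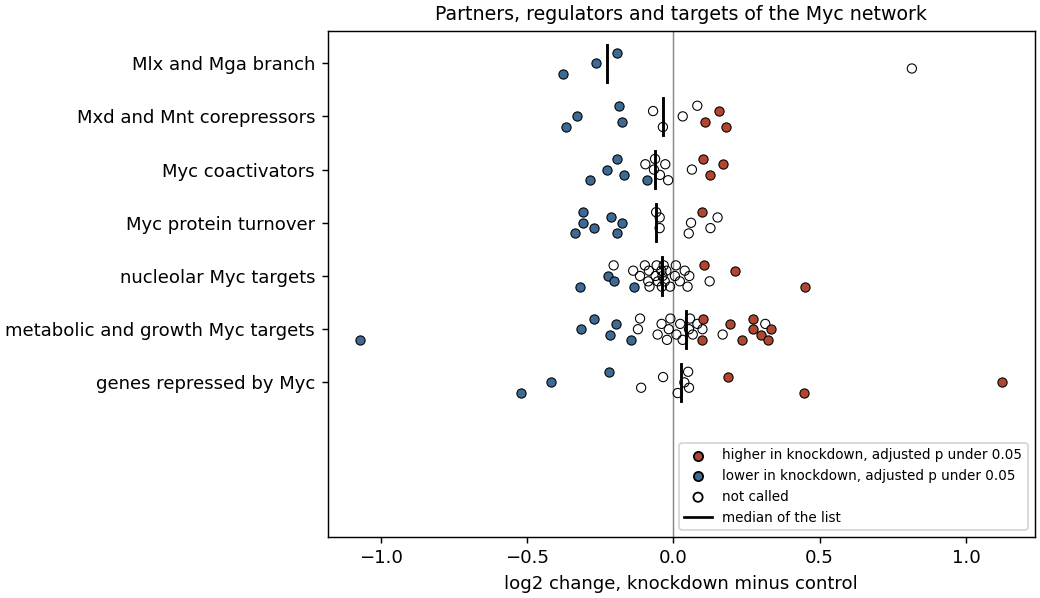
Log2 change, knockdown minus control (horizontal axis), of every tested gene in 7 lists of partners, regulators and targets of the network (rows; the vertical offset of points only separates them); red points were higher and blue points lower at an adjusted p under 0.05, open points were not called, and black lines are list medians. The medians run from -0.23 for the Mlx and Mga branch to 0.04 for metabolic and growth targets, and every list but the first holds genes called in both directions.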

How the data were processed

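The deposited table held raw read counts per gene for 4 libraries, which the authors made with HTSeq 0.6.1. Mouse build mm9 stands in the submitters' processing notes beside DESeq, Cufflinks, SAMtools 0.1.18, Bowtie 0.12.7 and TopHat 1.3.3. Annotation release and strand setting: not given in the sources used here. Rows for reads outside genes or with several alignments (20.1% to 22.2% and 10.7% to 11.2% of listed reads) stayed out of library sizes and tests. The authors' tables of DESeq fold changes and of term p-values were not used.

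The test was that of edgeR 4.0.16 (R 4.3.3), with filterByExpr (minimum count 10, minimum total 15), TMM scaling and robust quasi-likelihood, knockdown against control over all 4 libraries with no covariate. P-values were adjusted by Benjamini-Hochberg over all 14090 genes tested, and genes under 0.05 were called. Standard errors are those implied by the F statistic. Alternatives were DESeq2 1.42.0, its size factors, no filter, a replicate block and leaving out each library. The test was also run on counts simulated from the mean levels and variance estimates of these 4 libraries. Such a run cannot show how independently prepared cultures vary.

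The members and lists were chosen with earlier results of these data known. All members were named, with up to 4 genes per list by adjusted p and the 3 nearest profiles (log2 CPM, prior count 2), and counts of 5 or fewer could be named in full; some genes under this rule are not reported here. Further genes in the text were chosen after their values were seen, as was the transcript length. Coordinates come from GRCm38, not mm9. The protocol calls the libraries of a group biological replicates without saying how the cultures were separated. Each p-value rests on a variance that combines the gene's own spread between these libraries with that of all genes tested. The shared variation between libraries of a group was low (common biological coefficient of variation 2.95%). Their log2 CPM correlated at 0.9953 in the knockdown and 0.9957 in the control. Variation between independently prepared cultures may be larger and was not measured.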

Additional observations from a re-analysis of the deposited data

Results flagged for a closer look

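Reads that aligned at more than 1 place enter none of the comparisons. They made up 11.2% ± 0.0698 of all listed reads in knockdown libraries, against 10.8% ± 0.131 in control libraries (SD, n = 2 each), and drew attention because both knockdown values exceeded both control values.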

How the results depend on the processing

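With DESeq2's size factors, no filter and the replicate block, all 9 members kept their direction and side of the threshold. With DESeq2's test they did too, and 0 genes of protein turnover were called higher in place of 1 (edgeR). Leaving out each library gave 0 to 1 members higher and 3 to 5 lower. Log2 changes then ran from 0.10 to 0.18 for Myc, -0.19 to -0.11 for Max, -0.35 to -0.20 for Mxd1, -0.13 to -0.041 for Mxi1, -0.077 to 0.022 for Mxd4 and -0.23 to 0.10 for Mxd3. The last 2 turned positive, Mxd3 to 0.048 and Mxd4 to 0.022 without knockdown replicate 1, and Mxd3 to 0.10 without control replicate 2. Coactivators ranged from 1 to 2 higher and 2 to 5 lower, and turnover genes from 0 to 1 higher. Fewer samples entered these fits, and a group with 1 library was assumed to vary like the other. The labels of same-numbered libraries share a number and do not say whether these libraries were prepared together. The correlation of their deviations was 0.05 over 14090 genes, which cannot settle this. With the replicate block the Mycl1 log2 change was -0.58 and the Myc change 0.14. Over all genes tested, the alternatives called 2455 to 3404 higher and 2435 to 3377 lower. At 2 libraries per group and 18 to 26 reads a library, small changes in Mycn are beyond reach.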
